A study of Homo sapiens with 14 samples.

Results

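The integrated stress response genes described here are the 4 kinases that phosphorylate the alpha subunit of translation factor eIF2 (EIF2AK1, EIF2AK2, EIF2AK3 and EIF2AK4), the transcription factors ATF4 and DDIT3, and PPP1R15A and PPP1R15B, the regulatory subunits of the phosphatase that removes the phosphate again. They are 8 genes of the 19114 targeted in the knockout screens and of the 18886 targeted in the activation screens. The members were chosen by name, with results of these same screens known, mainly the rise of EIF2AK4 knockout guides under oxaliplatin in SW620. That rise is therefore given as a description.

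Phosphorylated eIF2alpha slows general translation and at the same time favours translation of ATF4, which switches on genes of amino acid uptake and synthesis, tRNA charging and, through DDIT3 (CHOP), cell death. Each kinase answers a different stress: EIF2AK4 (GCN2) uncharged tRNA and stalled ribosomes, EIF2AK1 (HRI) haem shortage and mitochondrial stress, EIF2AK2 (PKR) double-stranded RNA, and EIF2AK3 (PERK) unfolded protein in the endoplasmic reticulum. GCN2 needs the ribosome-bound protein GCN1 to become active in cells.

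The screens used RKO and SW620, established human colorectal cancer lines, as pools and not as single clones. Knockout pools expressed Cas9 and carried the Brunello guide library. Activation pools expressed dCas9-VP64, a Cas9 that cannot cut and is fused to a transcriptional activator, and carried the Calabrese library. All pools had been selected with blasticidin for the Cas9 construct and with puromycin for the guides, so the controls carry both as well. Guide abundance in genomic DNA was counted in each of the 4 screens at day 0, after 20 days without drug and after 20 days in oxaliplatin, a platinum compound that forms DNA crosslinks and disturbs ribosome synthesis. The dose was 1.9 µM for RKO, and SW620 was given 0.38 µM and 0.5 µM in separate arms, so line and dose cannot be told apart between the lines.

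Each of the 14 conditions was 1 library, so there was no replicate check and no test of a condition was possible. Values below are log2 folds of scaled counts with a pseudocount of 5. A gene's value is the median over its guides, 4 for each member in the knockout and 3 in the activation library, and it is given with the lowest and highest guide. Guides of 1 gene share a pool and are not replicates of the condition. A gene was called higher or lower when its median was at least 1 or at most -1, and it is said to have risen or fallen only then. Totals ran from 3647823 to 69526489 counts in the 8 libraries without drug and from 11898882 to 62598725 in the 6 oxaliplatin libraries. The most abundant 1% of guides held 2.16% to 3.88% of counts without drug and 7.20% to 52.8% under it, and SLC43A1 guides alone held 16.8% of the RKO knockout counts at 1.9 µM. The oxaliplatin library of the RKO activation screen stood apart, with 14.3% of guides at 0 and a median of 21 counts per guide. The line labels were checked on BRAF, which is mutant in RKO, and on CTNNB1, the effector of Wnt signalling, which is active in SW620. Without drug, BRAF knockout stood at -1.14 in RKO and 0.42 in SW620, and CTNNB1 knockout at 0.36 in RKO and -0.83 in SW620.

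Non-targeting guides, which cut nowhere, shifted along with the drug, and their spread is the yardstick for single guides. In the SW620 knockout screen their 5th to 95th percentile ran from -0.07 to 0.58 without drug, from -1.0 to 1.50 at 0.38 µM and from -2.68 to 3.63 at 0.5 µM. At 1.9 µM in RKO it ran from -1.18 to 1.96. A single guide fold at 0.5 µM thus had to be far larger to leave this range than one at 0.38 µM.

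EIF2AK4 knockout guides became scarcer in SW620 without drug and abundant under oxaliplatin. In SW620 the 4 guides had 598, 2838, 1667 and 1290 counts at day 0. After 20 days without drug they had 81, 711, 866 and 410 counts. At 0.38 µM the same guides had 2485, 17701, 3972 and 2874 counts. At 0.5 µM they had 5060, 10741, 3183 and 3889 counts. Every one of the 4 guides was lowest in the untreated day 20 library and higher in both drug arms than at day 0. Together they made up 92.0 CPM (counts per 1000000 of the library) at day 0 (95% Wilson interval 89.7 to 94.2, counting error only) and 43.6 without drug (41.8 to 45.5). They made up 443 CPM at 0.38 µM (438 to 449) and 365 at 0.5 µM (361 to 370).

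**Figure D1:**
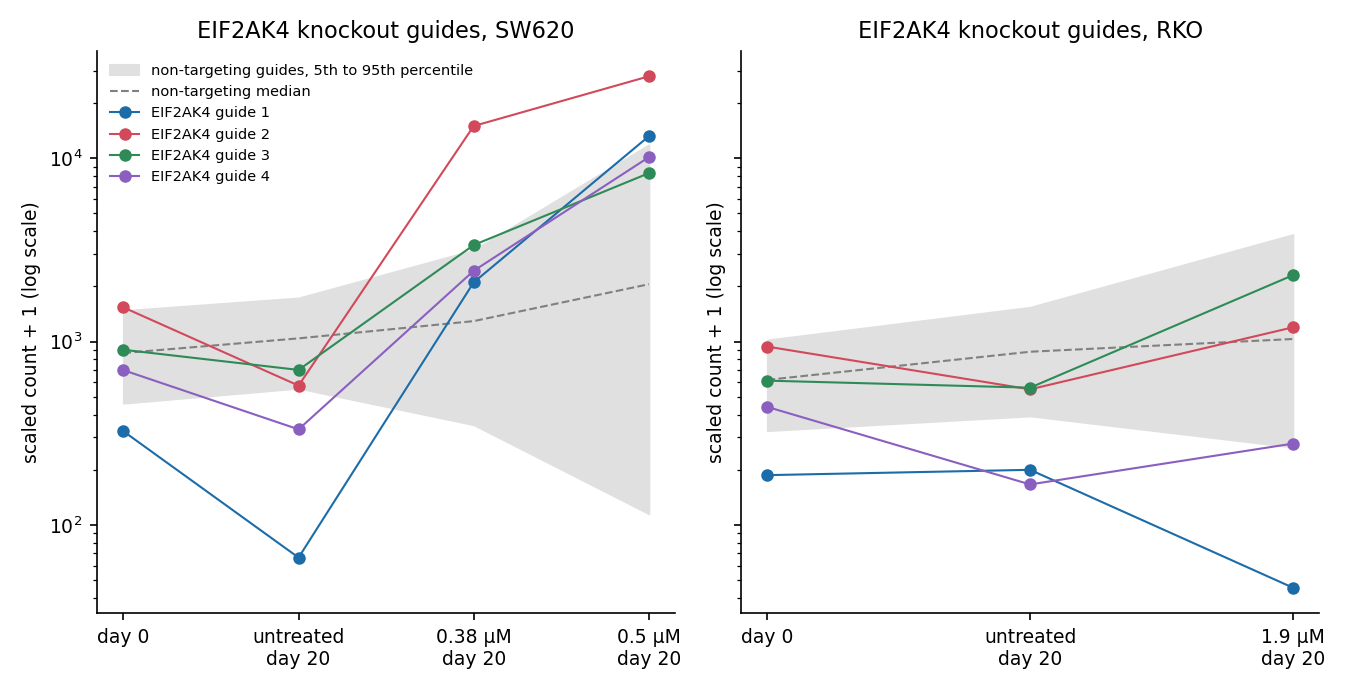
Scaled counts plus 1 (log axis) of the 4 EIF2AK4 knockout guides in each library of SW620 (left) and RKO (right). Lines join the values of 1 guide, grey spans the 5th to 95th percentiles for the 1000 non-targeting guides and the dashed line is their median. All 4 SW620 guides dip without drug and climb in both drug arms, and the RKO guides spread in both directions.

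Without drug the EIF2AK4 median in SW620 was -1.24 (guides -2.22 to -0.36), the 108th lowest of 19100 genes measured. All 4 guides lay below the non-targeting range, as did every measured guide of 1411 of the 19100 genes. The members PPP1R15B (4 of 4 guides) and ATF4 (3 of 3 measured) were among these. Over untreated cells, the median was 3.77 at 0.38 µM (2.25 to 4.90), a 13.7-fold rise, and 5.25 at 0.5 µM (3.56 to 7.55), a 38.1-fold rise. It stood 3rd highest at both doses, of 19092 and 19091 genes measured. At 0.38 µM all 4 guides exceeded the non-targeting 95th percentile, and 7 genes of the 19092 had every measured guide above it. At 0.5 µM 3 of 4 guides did. SLC43A1, the amino acid transporter named in the series' title, ranked first at both doses with medians of 8.26 and 11.09.

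The fall without drug and the rise over untreated cells share the untreated library. Against day 0 the EIF2AK4 medians were 2.29 at 0.38 µM (1.79 to 3.28) and 4.02 at 0.5 µM (3.19 to 5.33), the 6th and the 25th highest of all genes. Between the drug arms the 0.5 µM library was higher by 1.68 (0.90 to 2.64), with 4 of 4 guides above 0. Non-targeting guides spanned -2.99 to 3.76 in that ratio, so no EIF2AK4 guide left their range there. In CPM the EIF2AK4 guides were lower at 0.5 µM than at 0.38 µM, as given above, so the order of the doses depends on the scaling.

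Genes that fell without drug and rose with it in SW620 were counted beside all genes. Of the 19090 genes measured in all 3 knockout comparisons, 223 fell without drug. Of these, 9 rose at 0.38 µM, where 4.98% of all genes were called higher, so 9 of 223 is no excess over that share. EIF2AK4 was the 1 of the 9 that rose at both doses, beside 25.1% of all genes called higher at 0.5 µM. It was chosen for its rise, and the share of all genes higher at both doses was not counted. IMP4 missed the threshold at 0.5 µM with 0.98 and passed it with the authors' normalized columns, and with scaling to non-targeting guides GCN1L1 and OLA1 joined EIF2AK4. The others of the 9 were CDC7, IMP4, MYC, PCBP1, POLD2, RPL10, RPL3 and RPS26, genes of replication, transcription, RNA binding and ribosomes. The highest of these at 0.38 µM was MYC with 2.03, and MYC stood at -0.68 at 0.5 µM. The 223 genes had a median of -0.37 at 0.38 µM and -1.18 at 0.5 µM.

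**Figure D2:**
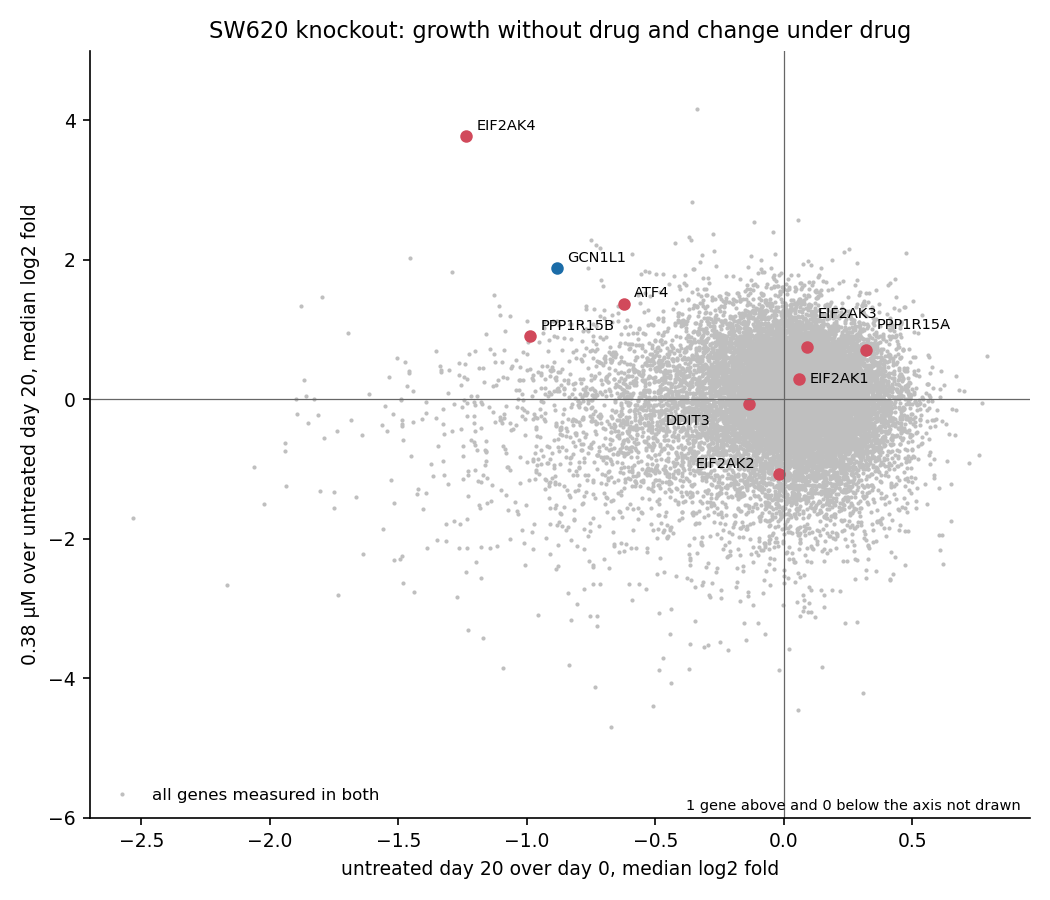
Gene medians in the SW620 knockout screen: change without drug (x axis, untreated day 20 over day 0) against change at 0.38 µM over untreated (y axis), both log2. Grey points are all genes measured in both, red points the 8 members and the blue point GCN1L1. EIF2AK4 sits at -1.24 and 3.77, apart from the other members.

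In RKO the EIF2AK4 guides did not move together. They had 244, 1230, 802 and 576 counts at day 0 and 273, 752, 768 and 227 after 20 days without drug. At 1.9 µM they had 24, 643, 1237 and 149 counts. The first guide fell to 24 counts while the third rose to 1237. The median was -0.45 without drug (-1.38 to 0.09) and 0.92 at 1.9 µM over untreated (-2.04 to 2.03), not past the threshold, with 3 of 4 guides above 0. It was -0.15 against day 0 and -0.38 over untreated with libraries scaled to their totals. Together the guides made up 58.5 CPM without drug (56.0 to 61.1) and 60.7 at 1.9 µM (58.1 to 63.4), and these intervals overlap.

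The same guides can be followed across the lines, since the knockout guide numbers match. Guide by guide, the SW620 fold at 0.38 µM exceeded the RKO fold by a median of 2.85 (0.23 to 6.94). At 0.5 µM the median excess was 4.33 (1.53 to 9.59). All 4 guides pointed the same way at both doses. For these differences EIF2AK4 stood 31st highest of 18440 genes and 42nd of 18442.

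The other eIF2alpha kinases did not show the SW620 pattern. At 0.38 µM the 12 guides against EIF2AK1, EIF2AK2 and EIF2AK3 ran from -3.46 to 1.61 with a median of -0.29, and all 4 EIF2AK4 guides lay above all 12. At 0.5 µM these guides ran from -3.50 to 3.66 with a median of 0.53, and 3 of 4 EIF2AK4 guides lay above all 12. Without drug they ran from -0.79 to 0.62 with a median of 0.09, and 3 of 4 EIF2AK4 guides lay below all 12. In RKO at 1.9 µM they ran from -0.67 to 3.28, and no EIF2AK4 guide lay above them all. The difference between the EIF2AK4 median and the median of the 12 was 4.07 at 0.38 µM, 4.72 at 0.5 µM and 0.68 in RKO.

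**Figure D3:**
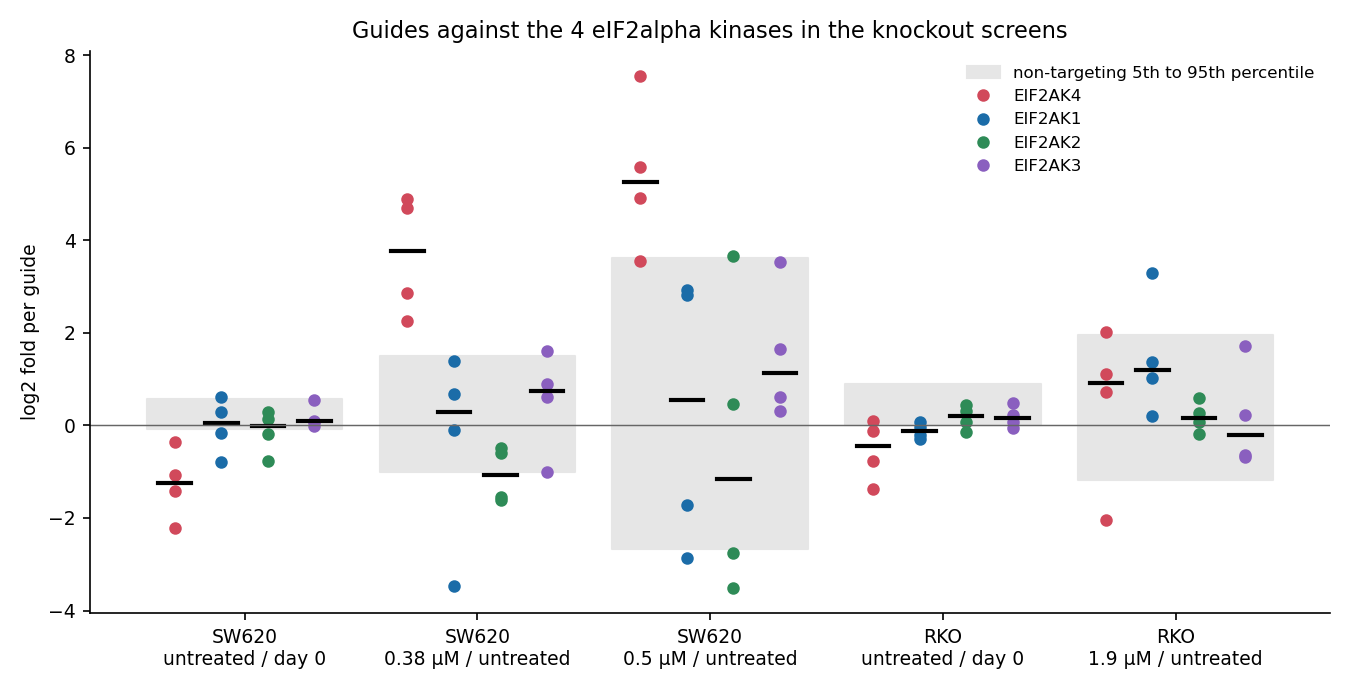
Log2 fold of each guide against the 4 eIF2alpha kinases in the 5 knockout comparisons, 4 guides per gene. Black bars are gene medians and grey boxes the non-targeting range (5th to 95th percentiles). In SW620 all 4 EIF2AK4 guides (red) lie above every guide of the other kinases at 0.38 µM and 3 of 4 at 0.5 µM. Without drug 3 of 4 lie below every one of them in SW620, and at 1.9 µM in RKO the guides overlap.

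EIF2AK1, the haem-regulated kinase, rose in RKO. Its 4 guides had 281, 461, 77 and 232 counts without drug and 291, 371, 318 and 106 at 1.9 µM, in a library where the median guide went from 372 to 146 counts. The median was 1.20 (0.21 to 3.28), with 4 of 4 guides above 0. The call was lost with scaling to non-targeting guides, which gave 0.96, and the sign turned with scaling to totals, which gave -0.10. In SW620 the third guide was low from the start, at 167 counts at day 0, and had 0 counts at 0.38 µM and 1 at 0.5 µM. The SW620 medians were 0.29 at 0.38 µM (-3.46 to 1.40) and 0.55 at 0.5 µM (-2.86 to 2.94), both negative after scaling to totals.

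EIF2AK2, the kinase of double-stranded RNA, was called lower in both SW620 drug arms. Its guides had 1079, 620, 539 and 351 counts without drug and 680, 423, 173 and 105 at 0.38 µM. All 4 were below 0, with a median of -1.07 (-1.62 to -0.48), and 2 lay below the non-targeting range. At 0.5 µM they had 48, 265, 13 and 1400 counts and split, with a median of -1.15 (-3.50 to 3.66) and 2 of 4 above 0, and the mean over guides was -0.54. In RKO the median was 0.17 (-0.18 to 0.59), so the guides stayed close together there.

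EIF2AK3, the endoplasmic reticulum kinase, had medians of 0.75 (-1.0 to 1.61) at 0.38 µM and 1.13 (0.31 to 3.54) at 0.5 µM. At 0.5 µM its 4 guides had 880, 474, 3655 and 398 counts against 900, 996, 1004 and 1030 without drug, and none left the non-targeting range. That call turned to -0.95 after scaling to totals. In RKO its median was -0.20 (-0.67 to 1.71).

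ATF4, the transcription factor translated when eIF2alpha is phosphorylated, was called higher in all 3 knockout drug arms, but in none of them with libraries scaled to their totals, where it stood at 0.48 in RKO and 0.96 and -0.82 in SW620. Its guide number 4 had 4 counts at day 0 in RKO and 8 in SW620 and was 0 afterwards, so 3 guides were measured. In RKO these had 579, 414 and 242 counts at day 0, 324, 489 and 93 without drug and 5019, 669 and 108 at 1.9 µM. The RKO median was 1.79 (1.50 to 5.27), carried furthest by the first guide, which alone left the non-targeting range. In SW620 they had 610, 284 and 256 counts without drug, 1396, 2179 and 643 at 0.38 µM and 4206, 86 and 189 at 0.5 µM. The medians were 1.37 (1.25 to 2.98) and 1.23 (-0.04 to 4.46). A different guide led in each SW620 arm, the second at 0.38 µM and the first at 0.5 µM. Against day 0 both SW620 calls were lost, at 0.90 and 0.61, and at 0.5 µM the value was 0.27 with scaling to non-targeting guides. Without drug ATF4 stood at -0.89 in RKO (-1.38 to 0.17) and at -0.62 in SW620 (-1.12 to -0.35), neither past the threshold.

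DDIT3, the death-promoting factor downstream of ATF4, was near 0 in RKO at 0.01 (-2.10 to 0.43) and in SW620 at 0.38 µM at -0.06 (-1.79 to 1.68). It fell at 0.5 µM, with a median of -1.84 (-4.65 to 0.70). Its guides had 7, 20, 51 and 359 counts there against 716, 422, 355 and 708 without drug, and 3 of 4 were below 0. One guide lay below the non-targeting range.

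Of the phosphatase subunits, PPP1R15A (GADD34), which stress induces, rose in RKO with a median of 1.34 (-2.03 to 2.77). Its guides had 257, 109, 94 and 220 counts without drug and 705, 49, 7 and 499 at 1.9 µM, so 2 gained and 2 lost reads. Scaled to totals the value was 0.07, and the mean over guides was 0.86. Its SW620 medians were 0.70 (-0.13 to 2.25) and 0.97 (-3.69 to 3.19), and the second was -1.09 after scaling to totals.

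PPP1R15B, the constitutive subunit, differed between the lines without drug. In SW620 its 4 guides went from 469, 444, 513 and 374 counts at day 0 to 144, 159, 183 and 106, a median of -0.99 (-1.19 to -0.88). In RKO they went from 273, 276, 222 and 187 to 282, 417, 311 and 416, a median of 0.47 (-0.02 to 1.06). The guide ranges of the 2 lines did not overlap, and how many of all genes also lack overlap was not counted. Guide by guide the difference, SW620 minus RKO, was -1.35, the 2nd lowest of 19077 genes. This comparison is free of drug and dose, and the lines' libraries also differ in how far ribosomal protein guides dropped, with a median of -3.21 over 69 genes in RKO and of -0.78 over 76 in SW620. Under drug, PPP1R15B stood at 0.91 at 0.38 µM (-0.22 to 1.31) and fell to -1.54 at 0.5 µM (-1.71 to 1.25), where the mean over guides was -0.89. In RKO it stood at -0.66 (-2.64 to 0.64).

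Counts of called members have to be read against all genes. In RKO at 1.9 µM 3 members were called higher (EIF2AK1, ATF4 and PPP1R15A) and 0 lower, against 11.4% and 7.9% of all genes. In SW620 at 0.38 µM 2 were called higher (EIF2AK4 and ATF4) and 1 lower (EIF2AK2), against 4.98% and 8.56%. At 0.5 µM 3 were called higher (EIF2AK4, EIF2AK3 and ATF4) and 3 lower (EIF2AK2, DDIT3 and PPP1R15B), against 25.1% and 30.4%. At 0.5 µM calls were so common that 6 of 8 members is read as no result about the members. Without drug EIF2AK4 was the 1 member called in SW620, lower, against 0% of genes called higher and 1.2% lower. PPP1R15B passed as well with scaling to totals (-1.03) and to non-targeting guides (-1.26). In RKO without drug 0 members were called, against 0% and 11.6%, and ATF4 passed with scaling to non-targeting guides (-1.39). The members' median was 0.55 in RKO, 0.73 at 0.38 µM and 0.76 at 0.5 µM, beside all-gene medians of 0.03, 0.04 and -0.09.

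These background shares depend on the scaling. Higher calls made up 59.0% of the calls in RKO, 36.8% at 0.38 µM and 45.2% at 0.5 µM. Scaled to non-targeting guides they made up 34.2%, 13.1% and 14.3%, and scaled to totals 1.73%, 5.32% and 1.65%. With non-targeting scaling the all-gene medians were -0.21, -0.21 and -1.04, and with totals -1.27, -0.38 and -2.12. EIF2AK4 kept rank 3 at both SW620 doses under each of these scalings, with 3.52 and 4.28 on non-targeting guides and 3.35 and 3.17 on totals.

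**Figure D4:**
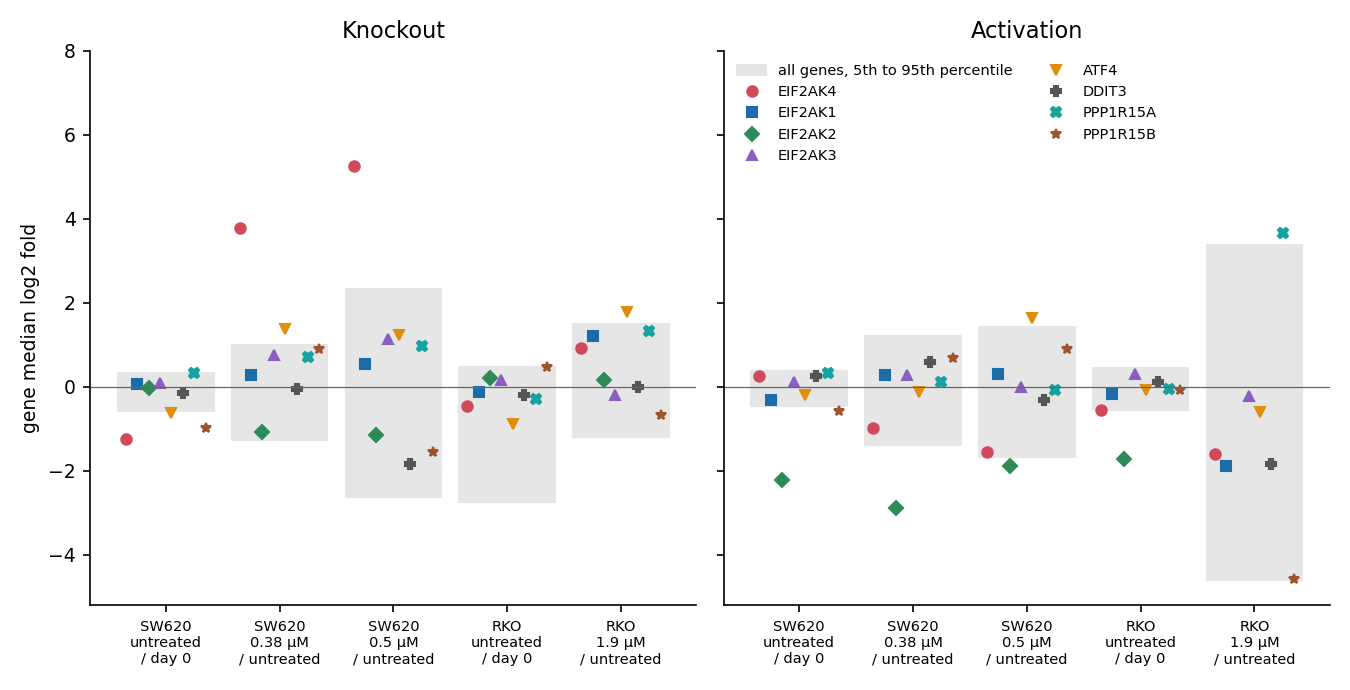
Median log2 fold of the 8 members in the knockout (left) and activation (right) comparisons. Grey boxes span the 5th to 95th percentile of all genes, and EIF2AK2 is missing at 1.9 µM in the activation screen because fewer than 2 guides were measured. EIF2AK4 knockout leaves the box in all 3 SW620 comparisons, and EIF2AK2 activation lies below it in both untreated comparisons.

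GCN1, listed in the knockout library under its older symbol GCN1L1 and the coactivator of GCN2, had the same signs as EIF2AK4 in SW620. In SW620 its 4 guides had 716, 1463, 720 and 708 counts at day 0, 261, 410, 254 and 364 without drug, 1192, 1582, 328 and 1193 at 0.38 µM and 81, 1548, 356 and 434 at 0.5 µM. The median was -0.88 without drug (-1.24 to -0.37), then 1.88 at 0.38 µM (0.43 to 2.23) with 4 of 4 guides above 0, and 2.03 at 0.5 µM (-0.0014 to 3.58). It stood 35th of 19092 genes at 0.38 µM and 1488th of 19091 at 0.5 µM. Above the non-targeting range lay 3 of 4 guides at 0.38 µM and 0 of 4 at 0.5 µM. On the totals scale the 0.5 µM value was -0.03, so the sign shared with EIF2AK4 at that dose depends on the scaling. In RKO all 4 guides were lower both without drug, at -1.11 (-1.35 to -0.61), and at 1.9 µM over untreated, at -0.99 (-1.77 to -0.58). Guide by guide, SW620 exceeded RKO by 2.72 at 0.38 µM (1.77 to 3.54), with 4 of 4 guides above 0. GCN1L1 came from a list of 14 kinase regulators drawn up with earlier results known. It was the 1 of the 14 called higher at 0.38 µM, beside 4.98% of all genes, so this count is read as no result about the list.

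PRKRA (PACT), an activator of EIF2AK2, was the 1 regulator of the 14 called lower at 0.38 µM. All genes were called lower there in 8.56% of cases, so this count too is read as no result about the list. Its SW620 guides had 762, 416, 483 and 270 counts without drug and 330, 21, 122 and 1 at 0.38 µM. The median was -2.89 (-5.25 to -1.13), the 49th lowest of 19092 genes, beside the -1.07 of EIF2AK2 itself. At 0.5 µM it was -2.55 (-3.11 to 1.23) and in RKO -1.36 (-1.45 to -0.46). PRKRA also acts in microRNA processing with TARBP2, another list member. TARBP2 stood at -0.30 at 0.38 µM and at 0.85 at 0.5 µM, and was called lower in RKO at -1.06. In RKO 3 of 13 measured regulators were called lower, RPLP1 lowest at -1.49, and 0 higher, beside 7.9% and 11.4% of all genes. This count was not tested. At 0.5 µM 4 of the 14 regulators were called higher and 6 lower, beside 25.1% and 30.4% of all genes. Scaled to totals 0 were higher and 10 lower, where 244 of all 19095 genes were called higher and 14585 lower.

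Of 22 ATF4 partners and targets, 0 rose and 1 fell at 0.38 µM (ATF5, -1.20), with a list median of 0.13, beside 4.98% of all genes called higher and 8.56% lower. At 0.5 µM 7 rose and 8 fell, beside 25.1% and 30.4% of all genes, among them CHAC1 at -3.85 and ATF5 at -2.89. In RKO at 1.9 µM 4 were called higher, ASNS among them, and 4 lower, beside 11.4% and 7.9%. These counts depend on the scaling. At 0.5 µM 0 rose and 15 fell on totals, where 244 of all 19095 genes were called higher and 14585 lower. On non-targeting guides 1 rose and 11 fell there, beside 1630 and 9752 of 19091 genes. In RKO 0 rose and 12 fell on totals, beside 207 and 11738 of 18213 genes. On non-targeting guides 1 rose and 4 fell in RKO, beside 1311 and 2518 of 18265 genes. These counts are read as no result about the list. The RKO examples were ASNS, asparagine synthetase, at 2.21, and SLC3A2 and SLC7A11, the subunits of the cystine transporter, at -1.90 and -1.50. ASNS had already fallen to -4.43 in RKO without drug, and 3 of its 4 guides could be measured at 1.9 µM (0.20 to 3.56). A guide with few untreated counts passes the count filter only where its drug count is high, so the ASNS value is not read as a rise under drug. In SW620 without drug ASNS stood at 0.20. Of 9 genes of the other unfolded protein response arms, 0 passed the threshold at 0.38 µM, where the list median was 0.55 and ATF6 stood at 0.93.

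The eIF2 and eIF2B genes, the substrate and its exchange factor, were listed together with EIF5 and CDC123, which are neither. These 10 genes lost guides without drug. Without drug 10 of 10 fell in RKO, with a median of -3.23, beside 11.6% of all genes, and 1 of 10 fell in SW620 (EIF2B2, -1.28), with a median of -0.68, beside 1.2%. Scaled to non-targeting guides 5 of 10 fell in untreated SW620, with a median of -0.94. With that scaling 542 genes fell among those measured in all 3 SW620 knockout comparisons. At 0.38 µM 3 of 10 fell over untreated cells (EIF2B2, EIF2S3 and EIF2B5) and 0 rose, with a median of -0.27, beside 8.56% of all genes called lower. At 0.5 µM 8 of 10 fell and 0 rose, with a median of -1.52, beside 30.4% called lower. Guides too depleted to be measured left 7 of the 10 in RKO at 1.9 µM, and no count is given there.

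The cytosolic aminoacyl-tRNA synthetases, which charge tRNA and so remove the signal that activates GCN2, fell without drug in RKO in 20 of 20 cases (median -4.02) and in SW620 in 4 of 20 (median -0.64), led by MARS at -1.75, beside 11.6% and 1.2% of all genes. In untreated SW620 6 of 20 fell with scaling to non-targeting guides. With that scaling 542 genes fell among those measured in all 3 SW620 knockout comparisons. At 0.38 µM 5 of 20 fell and 0 rose, with QARS lowest at -1.78, beside 8.56% lower and 4.98% higher. At 0.5 µM 9 fell and 3 rose, with DARS lowest at -2.98, beside 30.4% and 25.1%. On totals 17 fell and 0 rose, where 14585 of all 19095 genes were called lower and 244 higher. In RKO at 1.9 µM 9 of 20 could be measured.

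The genes whose knockout pattern was most like that of EIF2AK4, by the smallest Euclidean distance over the 5 knockout comparisons among 18445 genes, were FAM60A (distance 2.03), VHL (2.38), FBXO42 (2.49), ARID1A (2.70) and RFWD2 (2.76). The median gene lay at 6.82. Among the members ATF4 was nearest at 4.82 (rank 754), then EIF2AK3 at 5.43 and PPP1R15A at 5.51, and DDIT3 was furthest at 8.19. At 1.9 µM in RKO 3 of these 5 neighbours rose (VHL at 2.38, FBXO42 at 1.82 and RFWD2 at 1.09), beside 11.4% of all genes. FAM60A stood there at -0.10 and ARID1A at -0.43. All 5 comparisons entered the distance that picked the neighbours, so this count is read as no result about them. In the SW620 drug arms VHL had 2.82 and 4.19 and FAM60A 2.21 and 4.65. The fall of EIF2AK4 in untreated SW620 was not shared past the threshold. There FAM60A stood at -0.73, VHL at -0.36, FBXO42 at -0.36, ARID1A at -0.27 and RFWD2 at -0.35. In untreated RKO VHL (-1.29) and RFWD2 (-1.98) fell, and their folds at 1.9 µM are over that same untreated library.

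In the activation screens the member that stood out was EIF2AK2, whose guides were lost without drug in both lines. The deposited tables number the guides and hold no guide sequences. Activation guides are designed to land just upstream of a transcription start, next to an NGG motif, the Cas9 recognition site. The 150 bases upstream of the RefSeq start are shown for EIF2AK2, the member lost, and for EIF2AK4, the member that rose in the knockout screen (GRCh38.p14, each on its gene's strand, 5′ to 3′). Capitals mark every GG and CC, the GG of an NGG motif on either strand, overlapping ones included.
EIF2AK2, chr2:37156981-37157130, minus strand: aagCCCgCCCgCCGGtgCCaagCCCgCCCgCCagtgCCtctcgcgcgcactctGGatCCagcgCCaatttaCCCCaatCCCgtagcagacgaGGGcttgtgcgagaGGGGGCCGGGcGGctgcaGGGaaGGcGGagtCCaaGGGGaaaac
EIF2AK4, chr15:39933965-39934114, plus strand: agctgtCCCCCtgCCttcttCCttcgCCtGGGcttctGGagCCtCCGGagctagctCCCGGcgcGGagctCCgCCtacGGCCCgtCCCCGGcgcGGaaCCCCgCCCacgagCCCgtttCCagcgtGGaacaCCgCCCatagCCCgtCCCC
These windows hold 39 and 44 such sites, and 28.2% and 17.5% of 35116 RefSeq promoters hold at least as many. Which of them the library uses is not given in the tables.

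In RKO the 3 EIF2AK2 activation guides had 398, 279 and 597 counts at day 0, 60, 21 and 163 after 20 days without drug and 0, 0 and 0 at 1.9 µM. In SW620 they had 363, 359 and 466 counts at day 0, 4, 19 and 15 without drug, 4, 0 and 11 at 0.38 µM and 0, 0 and 29 at 0.5 µM. Every guide was lower without drug than at day 0 in both lines. The median without drug was -1.72 in RKO (-2.41 to -0.98), the 25th lowest of 18777 genes, and -2.22 in SW620 (-3.41 to -1.54), the 9th lowest of 18777. All 6 guide values lay below the 5th percentile of non-targeting guides, which was -0.61 in RKO and -0.50 in SW620. Every measured guide lay below it for 65 of 18777 genes in RKO and for 97 of 18777 in SW620. The activation guide numbers do not match between the lines, so guides cannot be paired.

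**Figure D5:**
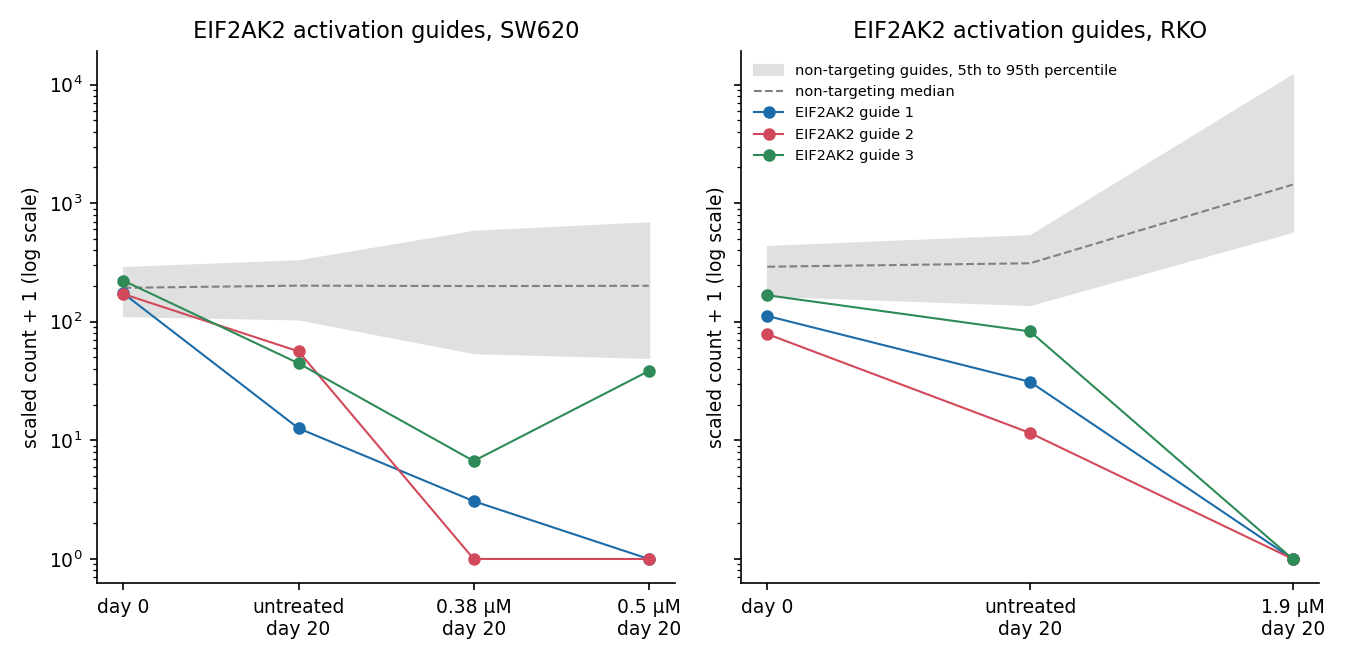
Scaled counts plus 1 (log axis) of the 3 EIF2AK2 activation guides in each library of SW620 (left) and RKO (right), with the range of 496 non-targeting guides (5th to 95th percentiles) in grey and their median dashed. At day 0 the SW620 guides lie within the grey range and the RKO guides at or below its lower edge. Without drug all 3 guides are lower than at day 0 in both lines and lie below the range, and under drug they stay below it.

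Under drug the remaining EIF2AK2 activation counts were too low for more than bounds. Over untreated SW620 cells 2 guides could be measured, with medians of -2.89 at 0.38 µM and -1.89 at 0.5 µM. The second guide was at least 35.6-fold lower at 0.38 µM and at least 14.3-fold lower at 0.5 µM, with the 0 taken as 3 counts in that library. These bounds take its 19 untreated counts as exact, so counting error in those is not covered. At 1.9 µM in RKO 0 of 28073257 counts came from EIF2AK2 guides, which allows up to 0.107 CPM. In that library 14.3% of all guides were also at 0, and its part in the result was not tested.

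The other kinases had no such loss when activated. Without drug EIF2AK1, EIF2AK3 and EIF2AK4 stood at -0.18, 0.30 and -0.55 in RKO and at -0.31, 0.12 and 0.26 in SW620. EIF2AK2 was the 1 member called lower in each line, against 0.724% of genes called lower in RKO and 0.389% in SW620, and 0% were called higher in either. In the knockout screens EIF2AK2 stood at 0.20 in RKO and -0.02 in SW620 without drug.

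EIF2AK4 activation guides had negative medians under drug, with a spread that crossed 0 in SW620. In SW620 the 3 guides had 82, 46 and 29 counts without drug, 229, 24 and 463 at 0.38 µM and 35, 33 and 131 at 0.5 µM, in libraries with median counts of 62, 346 and 138. The median was -0.98 at 0.38 µM (-2.99 to 1.45) and -1.54 at 0.5 µM (-2.28 to 0.96), with 1 of 3 guides above 0 at each dose. These point the other way from the knockout medians of 3.77 and 5.25, but the third guide was above 0 at both doses. In RKO they had 792, 197 and 369 counts without drug and 18, 1 and 24 at 1.9 µM, a median of -1.59 (-3.10 to -0.11), in a library whose all-gene median was -0.80 and whose non-targeting median was 2.25. With the authors' normalized columns the RKO value was -0.82, no longer called.

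In the SW620 activation screen 1 member was called lower at 0.38 µM (EIF2AK2) and 0 higher, against 8.78% of genes higher and 10.8% lower. At 0.5 µM ATF4 was called higher and EIF2AK2 and EIF2AK4 lower, against 12.4% and 15.1%. The EIF2AK2 call rests on 1 of its 2 measured guides. The EIF2AK4 call was lost against day 0 (-0.93) and with the mean over guides (-0.95). On totals the higher share of all calls moved from 44.8% to 15.0% at 0.38 µM and from 45.0% to 11.4% at 0.5 µM. The 3 ATF4 guides had 11, 66 and 9 counts without drug and 235, 205 and 71 at 0.5 µM, a median of 1.63 (0.45 to 3.06), but 101, 198 and 0 at 0.38 µM. There the guide at 0 was filtered out and the median of the other two was -0.12. With no filter on low counts it was -0.87. PPP1R15B had medians of 0.68 and 0.91 in these arms, and DDIT3 of 0.60 and -0.32.

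In the RKO activation screen at 1.9 µM 1 of 7 measured members was called higher (PPP1R15A, 3.67) and 4 lower (EIF2AK4, EIF2AK1, DDIT3 and PPP1R15B), against 25.9% and 47.2% of all genes. Higher calls were 35.5% of all calls there, 49.1% with the authors' normalized columns, 6.81% on non-targeting guides and 1.54% on totals. The PPP1R15A guides had 756, 702 and 584 counts without drug and 682, 2 and 660 under drug, so its call rests on guides that kept their counts while the median guide went from 547 to 21. Scaled to totals PPP1R15A stood at 0.08.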

How the data were processed

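Guides were counted by amplicon sequencing. The submitters' processing notes name MAGeCK 0.5.7 and cutadapt 4.0, without saying what each did, and the genome build is not given. The authors deposited raw counts per guide and a normalized signal per guide, and in each library that signal was the count times 1 constant. Library totals are given with the results. All 14 libraries are separate conditions with 1 library each, so no test was made, and count intervals cover counting error only, since reads carry no molecular identifiers.

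Here the deposited counts were divided by median-ratio size factors over all guides of a screen, and log2 folds were taken with a pseudocount of 5. A guide entered a comparison where its scaled counts averaged at least 20 over both libraries. Gene values are medians over at least 3 knockout or 2 activation guides. Non-targeting guides were treated the same way. The code was tested on simulated counts. Alternatives were other scalings, a pseudocount of 1, no filter, the mean over guides, day 0 as control, a threshold of 2 and leaving out each EIF2AK4 guide. Python 3.11.15, numpy 2.4.6, pandas 2.3.3, scipy 1.17.1 and matplotlib 3.10.9 were used. Promoter windows are from RefSeq, whose table held 7 of the 8 members.

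The members, the 5 pathway lists and the comparisons were chosen with earlier results of these data known. Named from each list were the called genes of largest median, at most 3 per comparison, otherwise the 1 of largest median, and the 5 genes nearest to EIF2AK4. GCN1L1 and PRKRA are shown guide by guide since they were the called regulators at 0.38 µM, and some list members are named for their role, after their values were seen.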

Additional observations from a re-analysis of the deposited data

How the results depend on the processing

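The main limits are 1 library per condition and guides with few counts in the oxaliplatin libraries. Signs were not tested beyond the settings named here. EIF2AK4 in the SW620 knockout screen stayed above the threshold in every setting. At 0.38 µM it was 3.35 scaled to totals, 3.52 scaled to non-targeting guides, 3.68 as a mean over guides, 2.29 against day 0 and 2.86 to 4.69 with 1 guide left out. At 0.5 µM it was 3.17, 4.28, 5.40, 4.02 and 4.91 to 5.59 in the same order. In RKO it was -0.38, 0.68, 0.46, -0.15 and 0.73 to 1.12, so the sign depended on the setting, and leaving out guide 1 or guide 4 gave 1.12, past the threshold. The authors' normalized columns, a pseudocount of 1 and no filter moved these 3 values by less than their counting error. With a threshold of 2, 0 members were called in RKO and 1, EIF2AK4, at each SW620 dose. Scaling to totals raised the genes called in RKO knockout from 3555 to 11945, and the other counts of called genes stayed within 1.5 times. Scaling to totals also reversed EIF2AK1 in RKO (-0.10) and EIF2AK3 (-0.95) and ATF4 (-0.82) at 0.5 µM. Over the members' other 44 values in all drug comparisons, 31 of 308 values under an alternative had the opposite sign, 3 of them where the gene was called (those just named) and 28 where it was not. Of the 19 called values, 11 lost the call in at least 1 alternative and 8 kept it in each. No paired analysis was possible because each condition has 1 library.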
